A study of Mus musculus with 8 samples.

Results

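MHC class I presentation is described here through 10 genes: the heavy chains H2-K1 and H2-D1, their light chain B2m, the peptide transporter genes Tap1 and Tap2, the loading factor Tapbp, the immunoproteasome subunits Psmb8 and Psmb9, the regulator Nlrc5 and the peptide trimming enzyme Erap1. They were taken by symbol from a table of 23952 gene symbols, with the transcript of highest mean level kept for each symbol. All 10 were present, and all 10 were among the 13311 genes tested. Levels are in RPKM (reads per kilobase of transcript per 1e6 reads), a length-scaled unit meant for comparing genes. Levels still depended on transcript length to unlike degrees between libraries, as given below. Summed RPKM ran from 462116 in library 1 to 664084 in library 2 of Total tumor. Comparisons between genes of unlike length and between libraries are therefore approximate.

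The 8 RNA sequencing libraries came from subcutaneous tumors that Lewis lung carcinoma cells, a mouse lung cancer cell line, had formed in both flanks of mice. The injected cells expressed the red fluorescent protein dTomato. The hosts were transgenic Col1a1-GFP mice, in which green fluorescent protein marks cells that use the Col1a1 promoter. Collagen labelled with the dye Alexa 647 was injected into the tumors 24 h before sorting, so every library came from a tumor treated in this way. The groups were TAM (tumor-associated macrophages, sorted as dTomato-, GFP-, F4/80+ and collagen+), Fibroblast (GFP+), LLC (dTomato+) and Total tumor (tumor that the labels do not describe as sorted), with 2 libraries each. TAM therefore stands for macrophages that had taken up collagen, Fibroblast for cells with Col1a1 promoter activity and LLC for cells that kept dTomato. The labels give neither the age of the mice nor the number of animals behind the 2 libraries of each group. The p-values therefore describe the spread between libraries, which may be technical.

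MHC class I molecules show peptides from inside the cell to CD8+ T cells. The proteasome cuts proteins into peptides, the TAP transporter carries the peptides into the endoplasmic reticulum, Erap1 trims them there, and the loading complex with Tapbp places them on a heavy chain bound to B2m. Interferons raise many of these genes in most cell types, the immunoproteasome subunits then take the place of catalytic subunits of the standard proteasome, and Nlrc5 acts at class I promoters.

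The estimated depth was 8.54 to 10.37 M reads (1 M is 1e6) in the libraries numbered 1 and 4.28 to 4.72 M in those numbered 2. Emr1, which encodes F4/80, was at 162 and 230 RPKM in TAM and below 9 RPKM in the Fibroblast and LLC libraries. Col1a1 was at 5315 and 4200 RPKM in Fibroblast and at 17.99 to 192 RPKM in the TAM and LLC libraries, so both gates matched their labels. The 15 macrophage markers had a median of 1.21 and 1.64% of their TAM level in Fibroblast, of 0.472 and 3.02% in LLC and of 10.6 and 22.7% in Total tumor. The 12 fibroblast markers had a median of 0.494 and 2.57% of their Fibroblast level in TAM and of 4.99 and 6.18% in LLC. In Total tumor it was 7.19 and 6.26%. Their shares in LLC differed widely, with means of 428 RPKM for Lum and 2824 RPKM for Col3a1, against 642 and 9519 RPKM in Fibroblast. Postn and Fap averaged 14.6 and 2.45 RPKM in LLC, against 667 and 54.8 RPKM. Pericyte markers summed to 192.5 and 118.6 RPKM in Fibroblast, and B cell markers to 54.9 and 16.5 RPKM in TAM. Endothelial markers summed to 70.2 and 57.6 RPKM in Fibroblast, against 45.6 and 48.5 RPKM in Total tumor. Neutrophil markers summed to 69.2 and 60.4 RPKM in TAM, against 133.0 and 596.9 RPKM in Total tumor. The 5 epithelial markers summed to 24.8 and 179.1 RPKM in Fibroblast and to 179.3 and 128.7 RPKM in LLC. Among them Krt19 was at 16.5 and 99.6 RPKM in Fibroblast, and its mean, like those of Epcam and Cdh1, was higher there than in LLC. Krt8 and Krt18 went the other way, with means of 11.7 and 25.3 RPKM in Fibroblast and 50.5 and 102.2 RPKM in LLC. Levels depended on transcript length most in library 2 of Total tumor. Its median deviation from the gene mean, on the log2 scale, was 0.83 for transcripts under 1500 bases and -0.25 for those over 4000 bases. Smaller trends were seen in other libraries, such as library 1 of TAM (0.037 and -0.431) and library 2 of LLC (-0.145 and 0.369).

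The promoters of the heavy chains, of B2m and of the Tap1 and Psmb9 pair are shown so that the related heavy chains can be compared with each other and with the light chain they bind, and because Tap1 and Psmb9 start from 1 shared interval. In the RefSeq promoter sequences (build GRCm38.p6, later than the build of the levels), entries were found for 8 of the 10 genes, all but Tap2 and Nlrc5. Capitals mark matches to 5 motifs searched on both strands in the 250 bases before the start site. The motifs were an interferon response element core (GAANNGAAA), an NF-kappaB motif (GGANTNNCC), a gamma-activated site (TTCNNNGAA), an X2 box core (TGACGC) and a CCAAT box (CCAAT). They were chosen with the H2-K1 promoter in view. The H2-K1 stretch lies on the minus strand at chr17:34000349-34000468, H2-D1 on the plus strand at chr17:35262913-35263032, B2m on the plus strand at chr2:122147551-122147648, and the interval between the start sites of Psmb9 and Tap1 is given on the plus strand at chr17:34187331-34187555.
H2-K1: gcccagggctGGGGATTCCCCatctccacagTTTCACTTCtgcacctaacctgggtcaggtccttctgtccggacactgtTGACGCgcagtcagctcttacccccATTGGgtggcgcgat
H2-D1: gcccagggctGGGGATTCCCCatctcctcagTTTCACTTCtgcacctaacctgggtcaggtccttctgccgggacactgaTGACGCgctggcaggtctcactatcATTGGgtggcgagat
B2m: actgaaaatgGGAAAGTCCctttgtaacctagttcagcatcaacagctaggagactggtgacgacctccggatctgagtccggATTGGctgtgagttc
Tap1 and Psmb9: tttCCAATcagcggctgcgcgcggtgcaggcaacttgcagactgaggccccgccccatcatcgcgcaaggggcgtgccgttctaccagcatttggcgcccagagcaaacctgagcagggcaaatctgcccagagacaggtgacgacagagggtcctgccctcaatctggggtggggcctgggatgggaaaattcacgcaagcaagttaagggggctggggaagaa

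The H2-K1 and H2-D1 stretches were identical at 108 of 120 bases (90.0%) and carried the same motifs in the same order: NF-kappaB (2 overlapping matches, 1 on each strand), the interferon response element core, the X2 box core and a CCAAT box. B2m held an NF-kappaB match and a CCAAT box. Exact matches to the interferon response element core were found in H2-K1 and H2-D1, against 6.31% of 32851 promoters of the same length. Those to the X2 box core were in the same 2 genes, against 6.12%. The motifs were chosen with H2-K1 in view and H2-D1 is near-identical there, so these shares do not measure enrichment. Near matches were not counted. The 250 bases of B2m hold GAAACTGAAA, which the search for GAANNGAAA misses because of its spacing. B2m is therefore not shown to lack an interferon response element, and its printed stretch starts inside these bases. B2m also holds TGACGA, which lies between Psmb9 and Tap1 as well. The NF-kappaB motif was found in H2-K1, H2-D1 and B2m, against 10.8% of promoters, and the gamma-activated site in Psmb8, against 7.02%. The CCAAT box was found in 6 of the 8 genes, against 33.8% of promoters, and Erap1 had no match to any of the 5 motifs. Tap1 and Psmb9 start from opposite sides of the printed interval, and their CCAAT box is the same 5 bases read from each side. On chromosome 17 the annotation places Psmb9, Tap1, Psmb8 and Tap2 next to each other with 0 other coding genes between them.

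**Figure D1:**
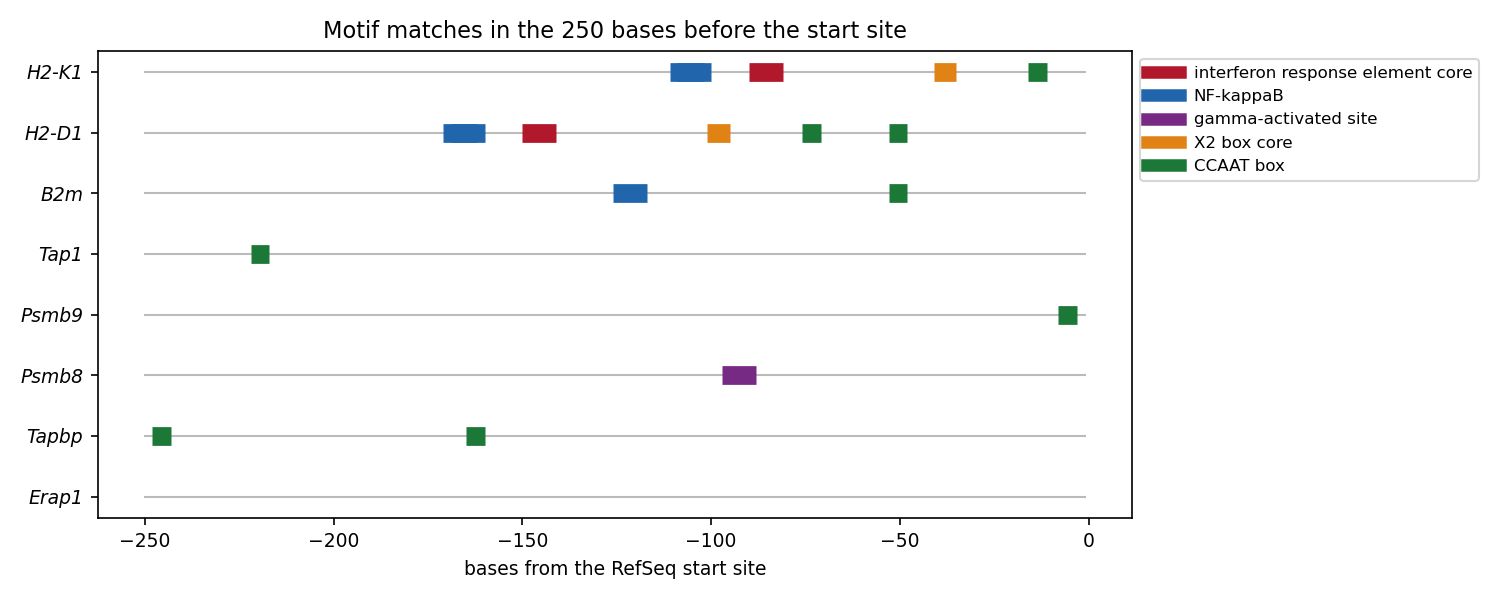
Motif matches (coloured blocks, both strands) in the 250 bases before the RefSeq start site of 8 of the 10 genes, with the distance from the start site in bases on the horizontal axis. The blocks of H2-K1 and H2-D1 stand in the same order, and Erap1 has none.

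The heavy chains had their highest levels in TAM. H2-K1 (NM_001001892), which encodes the K heavy chain, was at 1466 and 1116 RPKM in TAM, 408 and 493 RPKM in Fibroblast, 111 and 109 RPKM in LLC and 264 and 391 RPKM in Total tumor. The 3 sorted populations did not overlap, and LLC stood lowest at 8.55% of the TAM mean. In limma's test with Benjamini-Hochberg adjustment, H2-K1 was higher in TAM than in LLC by a log2 difference of 3.52 ± 0.36 (SE, adjusted p = 0.000271), higher in TAM than in Fibroblast by 1.51 ± 0.36 (adjusted p = 0.0124) and higher in Fibroblast than in LLC by 2.01 ± 0.36 (adjusted p = 0.00433). The macrophage markers in the 2 LLC libraries had medians of 0.472 and 3.02% of their TAM level. The fibroblast markers there had medians of 4.99 and 6.18% of their Fibroblast level. The part of either in the LLC level of H2-K1 was not tested.

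H2-D1 (NM_010380), the D heavy chain, was at 2086 and 1578 RPKM in TAM, 550 and 613 RPKM in Fibroblast, 603 and 465 RPKM in LLC and 623 and 1171 RPKM in Total tumor. Its libraries overlapped between Fibroblast and LLC, whereas those of TAM lay above all others. H2-D1 was higher in TAM than in Fibroblast by a log2 difference of 1.64 ± 0.48 (SE, limma adjusted p = 0.0319) and higher in TAM than in LLC by 1.77 ± 0.48 (adjusted p = 0.0204). Between Fibroblast and LLC its difference was 0.13, with a 95% interval of -0.99 to 1.25 (adjusted p = 0.853). The row named H2-L had the same order of group means, at 1698 and 1428 RPKM in TAM, 476 and 530 RPKM in Fibroblast, 504 and 411 RPKM in LLC and 545 and 824 RPKM in Total tumor. The row named LOC547349 was at 834 and 586 RPKM in TAM, 213 and 181 RPKM in Fibroblast and 234 and 180 RPKM in LLC, so its Fibroblast and LLC libraries overlapped. How reads that match several of these near-identical heavy chains were assigned is not given in the sources used here, so the level of each is uncertain.

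The level of H2-K1 relative to H2-D1 set LLC apart, a ratio added after the values were seen. H2-K1 over H2-D1 was 0.703 and 0.707 in TAM, 0.742 and 0.805 in Fibroblast, 0.185 and 0.235 in LLC and 0.424 and 0.334 in Total tumor. The LLC libraries lay below all others. With 2 libraries against 2 an exact permutation test cannot go below p = 0.333, so none of the ratios given here was tested.

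B2m (NM_009735), the light chain shared by all class I heavy chains, was among the most abundant transcripts of every group, with rank 4 in TAM, 8 in Fibroblast, 4 in LLC and 3 in Total tumor. It was at 5993 and 5129 RPKM in TAM, 2344 and 2997 RPKM in Fibroblast, 2013 and 1691 RPKM in LLC and 2232 and 3148 RPKM in Total tumor. The TAM libraries lay above the other 6, but B2m did not pass the test. Its log2 difference was 1.59 ± 0.67 for TAM minus LLC (SE, limma adjusted p = 0.0931) and 1.06 ± 0.67 for TAM minus Fibroblast (adjusted p = 0.272). When limma was fitted without a trend of variance with mean level, the SE of both differences was 0.28. B2m was then called in both (adjusted p = 0.00332 and 0.0213), so its result depended on how the spread was estimated. Leaving out library 1 or library 2 of Total tumor, which share the estimate of the spread, gave adjusted p-values of 0.00586 and 0.00734 for TAM against LLC and of 0.0326 and 0.0396 for TAM against Fibroblast. Over 21 settings of the analysis B2m was called in 6 for TAM against LLC and in 3 for TAM against Fibroblast, and quantile normalization gave its lowest differences, 0.15 (adjusted p = 0.814) and 0.50 (0.427). B2m over the sum of H2-K1 and H2-D1 was 1.69 and 1.90 in TAM, 2.45 and 2.71 in Fibroblast, 2.82 and 2.94 in LLC and 2.51 and 2.02 in Total tumor.

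The immunoproteasome subunits Psmb8 and Psmb9 had the steepest order of the 10 genes. Psmb8 (NM_010724), which takes the place of the standard catalytic subunit Psmb5, was at 218 and 173 RPKM in TAM, 54.4 and 64.1 RPKM in Fibroblast, 10.5 and 11.5 RPKM in LLC and 36.3 and 77.1 RPKM in Total tumor. No sorted population overlapped another, and the LLC mean was 5.62% of the TAM mean. Psmb8 was higher in TAM than in LLC by a log2 difference of 4.03 ± 0.35 (SE, limma adjusted p = 0.00018), higher in TAM than in Fibroblast by 1.70 ± 0.35 (adjusted p = 0.00705) and higher in Fibroblast than in LLC by 2.32 ± 0.35 (adjusted p = 0.0023).

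Psmb9 (NM_013585), which takes the place of Psmb6, was at 127 and 96.1 RPKM in TAM, 24.3 and 36.9 RPKM in Fibroblast, 6.26 and 9.03 RPKM in LLC and 27.2 and 39.2 RPKM in Total tumor. Its sorted populations were again separate, with LLC at 6.87% of the TAM mean. The macrophage markers in LLC had medians of 0.472 and 3.02% of their TAM level, and their part in the LLC levels of Psmb8 and Psmb9 was not tested. Psmb9 was higher in TAM than in LLC by a log2 difference of 3.71 ± 0.32 (SE, limma adjusted p = 0.000176), higher in TAM than in Fibroblast by 1.85 ± 0.32 (adjusted p = 0.00281) and higher in Fibroblast than in LLC by 1.86 ± 0.32 (adjusted p = 0.0038).

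The TAP transporter is made of 1 chain from each of Tap1 and Tap2. The Fibroblast and LLC libraries stood apart in Tap1 but overlapped in Tap2. Tap1 (NM_013683) was at 97.5 and 96.9 RPKM in TAM, 29.9 and 36.8 RPKM in Fibroblast, 13.8 and 15.4 RPKM in LLC and 28.7 and 31.5 RPKM in Total tumor. Tap1 was higher in TAM than in LLC by a log2 difference of 2.66 ± 0.21 (SE, limma adjusted p = 0.000147), higher in TAM than in Fibroblast by 1.52 ± 0.21 (adjusted p = 0.000987) and higher in Fibroblast than in LLC by 1.14 ± 0.21 (adjusted p = 0.00555). Tap2 (NM_011530) was at 62.3 and 55.6 RPKM in TAM, 25.6 and 32.4 RPKM in Fibroblast, 28.8 and 22.4 RPKM in LLC and 29.6 and 44.99 RPKM in Total tumor, and its Fibroblast and LLC libraries overlapped. Tap2 was higher in TAM than in LLC by 1.18 ± 0.28 (adjusted p = 0.0113) and higher in TAM than in Fibroblast by 1.01 ± 0.28 (adjusted p = 0.025), and its difference for Fibroblast minus LLC was 0.17, with a 95% interval of -0.47 to 0.82.

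Tap1 over Tap2 was 1.56 and 1.74 in TAM, 1.17 and 1.14 in Fibroblast, 0.477 and 0.687 in LLC and 0.97 and 0.701 in Total tumor. Tap1 was thus the more abundant chain in TAM and Fibroblast, and Tap2 in LLC and Total tumor.

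Tapbp and Erap1, which act after transport, passed the test in none of the comparisons of sorted populations. Tapbp (NM_009318), also called tapasin, which bridges the transporter and the empty heavy chain, was at 160 and 159 RPKM in TAM, 111 and 122 RPKM in Fibroblast, 118 and 127 RPKM in LLC and 98.6 and 179 RPKM in Total tumor. The TAM libraries lay above those of Fibroblast and LLC, but the log2 difference was 0.45 (95% interval -0.29 to 1.20) for TAM minus Fibroblast and 0.38 (-0.36 to 1.12) for TAM minus LLC. Erap1 (NM_030711), which cuts residues off the front end of peptides, was at 13.2 and 23.4 RPKM in TAM, 12.2 and 19.0 RPKM in Fibroblast, 16.8 and 22.3 RPKM in LLC and 20.9 and 7.36 RPKM in Total tumor. The groups of Erap1 overlapped in every comparison, and its interval for TAM minus LLC ran from -1.28 to 1.01. Erap1 was the member whose mean was highest in LLC.

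Nlrc5 (NM_001033207), a regulator that raises transcription of class I genes, was at 14.4 and 19.7 RPKM in TAM, 3.09 and 5.59 RPKM in Fibroblast, 5.10 and 6.11 RPKM in LLC and 11.7 and 3.68 RPKM in Total tumor. It was higher in TAM than in Fibroblast by a log2 difference of 1.78 ± 0.48 (SE, limma adjusted p = 0.0232) and higher in TAM than in LLC by 1.44 ± 0.48 (adjusted p = 0.0447). Its Fibroblast and LLC libraries overlapped, with a difference of -0.34 and a 95% interval of -1.47 to 0.78. Nlrc5 and Erap1 have the longest transcripts of the 10, at 6945 and 5644 bases. Both stood low in library 2 of Total tumor, the library whose levels depended most on length. The part of length in these values was not tested.

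**Figure D2:**
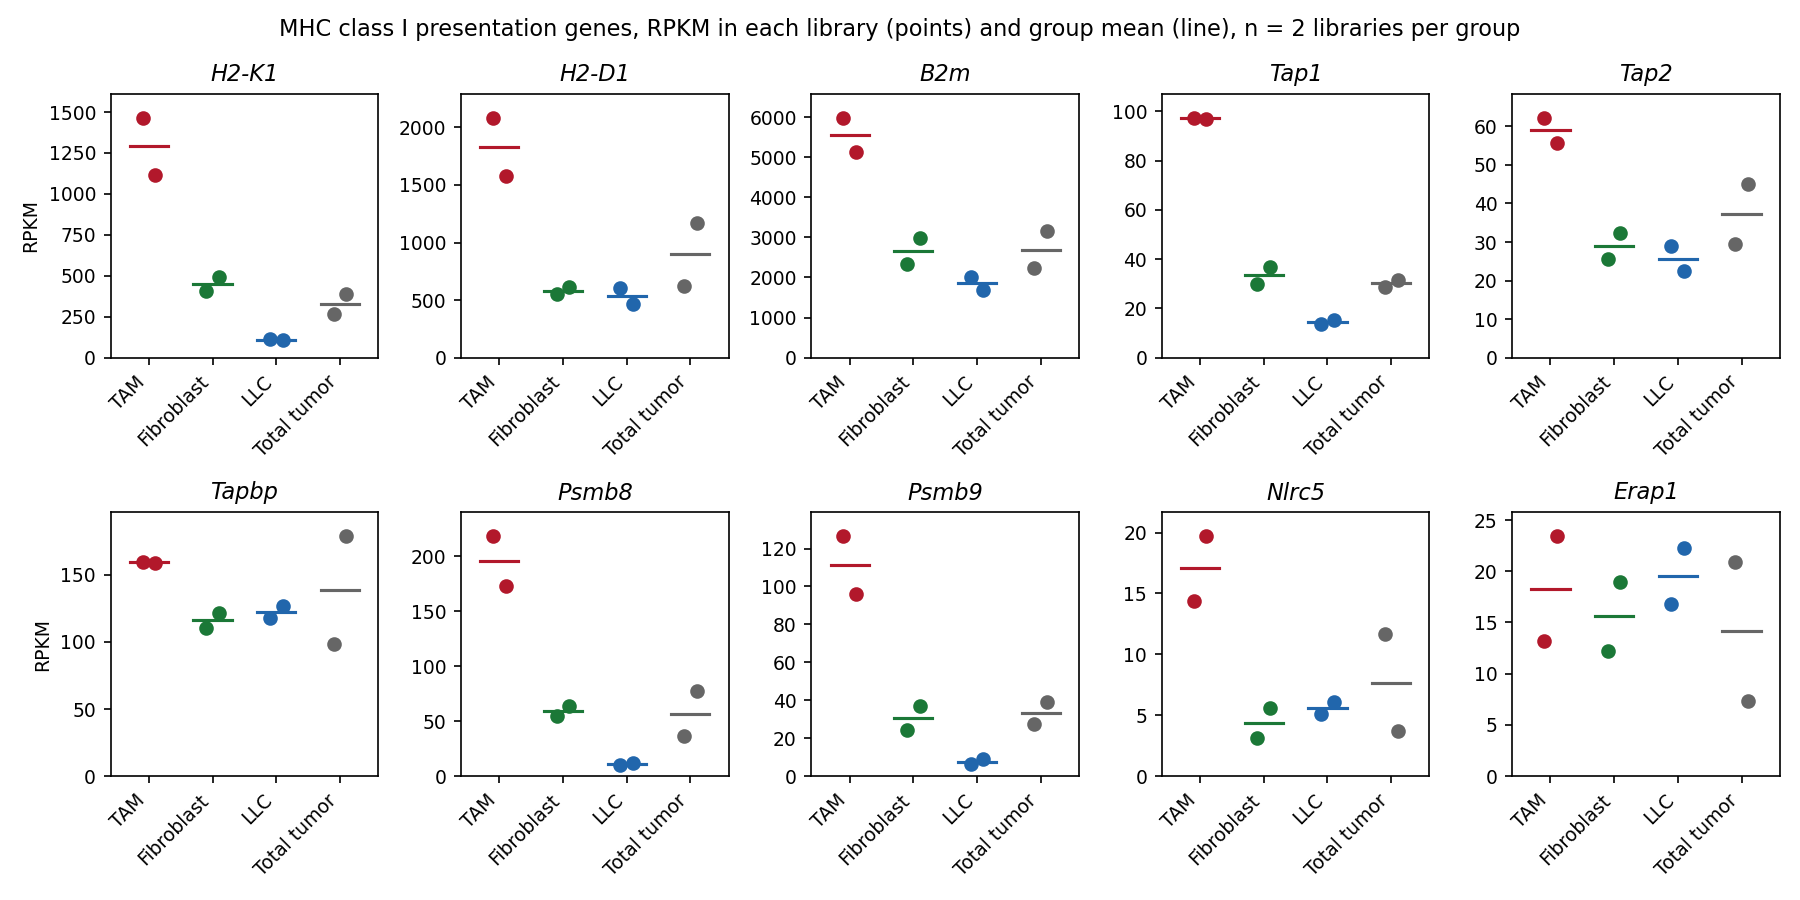
RPKM of the 10 genes in each library (points, with the group mean as a line, 2 libraries per group), on linear axes that start at 0. TAM is highest for every gene except Erap1, and LLC is far below Fibroblast for H2-K1, Psmb8 and Psmb9 but not for H2-D1, Tap2, Nlrc5 or Erap1.

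Between TAM and Fibroblast, 7 of the 10 genes were higher in TAM and 0 lower, against 17.4% of all genes tested that were called higher and 17.3% called lower. The members' median log2 difference was 1.52, beside 0.13 over all genes. The members and gene lists were chosen with earlier results of these data known. The all-gene shares here and below are therefore given for description and do not measure enrichment. The calls of Tap1 and Psmb9 held without each library in turn. The call of H2-K1 ended without library 1 or 2 of Fibroblast (adjusted p = 0.11 and 0.0654) or library 1 of TAM (0.0781), that of Psmb8 without library 1 of Fibroblast (0.0629) or of TAM (0.0568), that of H2-D1 without any 1 of the 6 sorted libraries (0.0711 to 0.202), and those of Tap2 (0.0678 to 0.163) and Nlrc5 (0.0586 to 0.166) without any 1 of the 4 TAM and Fibroblast libraries. Without a filter on low values the calls of H2-K1 (0.0695), H2-D1 (0.506), Tap2 (0.0636) and Nlrc5 (0.107) ended. Quantile normalization ended that of Tap2 (difference 0.61, adjusted p = 0.063) and lowered the called differences of H2-K1 to 0.98 and of H2-D1 to 0.93, and upper-quartile rescaling ended that of Nlrc5 (0.0572).

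Between TAM and LLC, 7 of the 10 were higher in TAM and 0 lower, against 15.4% of all genes called higher and 27.5% called lower, and the median was 1.68, beside -0.38 over all genes. The calls of H2-K1, Tap1, Psmb8 and Psmb9 held without each library in turn. Those of H2-D1 (adjusted p = 0.0584 to 0.144) and Nlrc5 (0.0728 to 0.192) ended without any 1 of the 6 sorted libraries, and that of Tap2 without library 2 of LLC (0.0815) or library 1 of TAM (0.0705). The call of H2-D1 also ended with quantile normalization (difference 0.65, adjusted p = 0.0744) and without a filter on low values (0.453), and that of Nlrc5 with a pseudocount of 0.1 (0.0563) and without the filter (0.168).

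Between Fibroblast and LLC, 4 of the 10 were higher in Fibroblast (H2-K1, Psmb8, Psmb9 and Tap1) and 0 lower, against 13.0% of all genes called higher and 25.7% called lower, and the median was 0.35, beside -0.46 over all genes. The calls of Psmb8 and Psmb9 held without each library in turn. That of H2-K1 ended without library 2 of Fibroblast (adjusted p = 0.0522) and that of Tap1 without library 2 of Fibroblast (0.0541) or library 1 of LLC (0.0529). The 3 comparisons share libraries, so their counts are not independent.

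**Figure D3:**
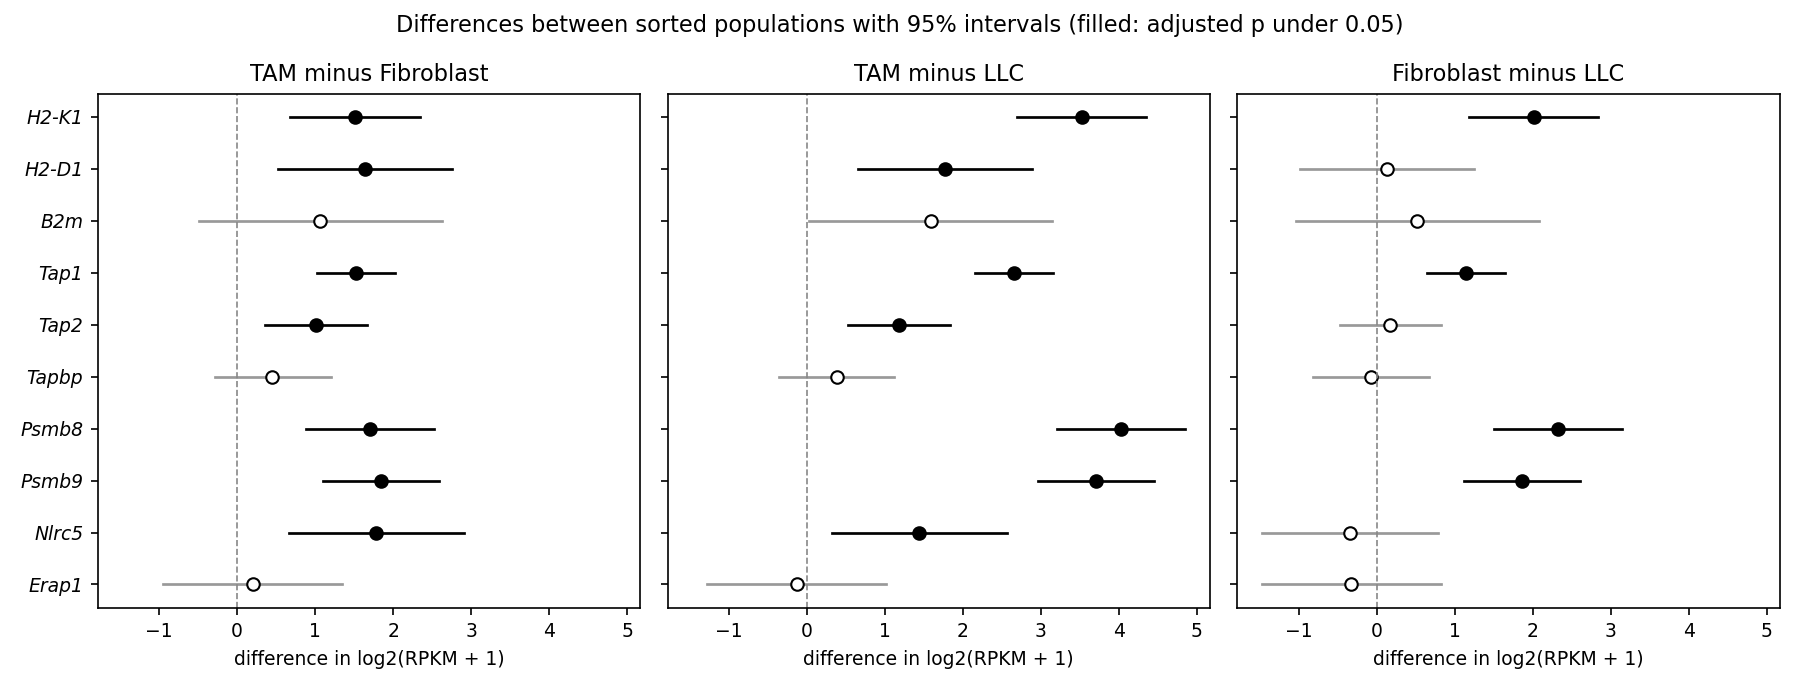
Differences in log2(RPKM + 1) between sorted populations with 95% intervals from the fit over all 8 libraries, filled where the adjusted p was under 0.05. H2-K1, Tap1, Psmb8 and Psmb9 are filled in all 3 panels, and Tapbp, Erap1 and B2m in none.

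In Total tumor, which mixes these cells with others, fewer cells of a type and less RNA per cell cannot be told apart. TAM exceeded Total tumor in H2-K1 by a log2 difference of 1.99 ± 0.36 (SE, limma adjusted p = 0.00534), in Psmb8 by 1.86 ± 0.35 (adjusted p = 0.00683), in Psmb9 by 1.72 ± 0.32 (adjusted p = 0.00604) and in Tap1 by 1.66 ± 0.21 (adjusted p = 0.00169). These were 4 of the 10 genes, against 11.3% of all genes called higher, and 0 were lower. Without library 1 of TAM the call of Psmb8 ended (0.0514), and without library 2 of Total tumor the number called was 8. With only TAM and Total tumor in the fit, the calls of H2-K1 (0.106) and Psmb8 (0.0634) ended.

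LLC was lower than Total tumor in Psmb8 by a log2 difference of -2.17 ± 0.35 (SE, limma adjusted p = 0.03) and in Psmb9 by -1.98 ± 0.32 (adjusted p = 0.0292), 2 of the 10 genes, against 2.3% of all genes called lower. The differences of H2-K1 (-1.53, adjusted p = 0.0829) and Tap1 (-1.0, adjusted p = 0.0638) did not pass. Both calls ended without library 1 of LLC (0.204 for Psmb8 and 0.208 for Psmb9) and without any 1 of the Fibroblast or TAM libraries (0.0761 to 0.108), Psmb8 also without library 2 of LLC (0.0961) and Psmb9 without library 2 of Total tumor (0.0781). Both also ended without a filter on low values (0.229 for Psmb8 and 0.218 for Psmb9) and with only LLC and Total tumor in the fit (0.285 and 0.269). Without library 1 of Total tumor, 4 genes were called.

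Between Fibroblast and Total tumor 0 of the 10 genes were called by limma in either direction, and 0 had an unadjusted p under 0.05, against 42.1% of all genes called. The differences ran from -0.57 for Nlrc5 to 0.48 for H2-K1. Without library 1 or library 2 of Total tumor the number called was 2.

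The ratios of proteasome subunit RNA, which are not levels of protein, had their highest means in TAM and their lowest in LLC. Psmb8 over Psmb5 was 4.77 and 4.53 in TAM, 2.74 and 3.0 in Fibroblast, 0.299 and 0.432 in LLC and 1.39 and 1.16 in Total tumor, so the immunoproteasome subunit was the more abundant of the pair in every library except the 2 of LLC. Psmb9 over Psmb6 was 0.752 and 0.961 in TAM, 0.377 and 0.736 in Fibroblast, 0.0457 and 0.0986 in LLC and 0.258 and 0.138 in Total tumor. Psmb10 over Psmb7, the third catalytic pair, was 1.37 and 1.34 in TAM, 0.747 and 1.24 in Fibroblast, 0.347 and 0.458 in LLC and 0.415 and 0.622 in Total tumor. In all 3 pairs the LLC libraries lay below those of TAM and Fibroblast. In the third, Psmb10 was not called between Fibroblast and LLC (log2 difference 0.12, limma adjusted p = 0.832). Psmb7 was lower in Fibroblast than in LLC (-1.13, adjusted p = 0.0291). That call ended without a filter on low values (0.0853) and with upper-quartile rescaling (0.123).

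The standard subunits were read from the same libraries. Psmb5 was at 45.8 and 38.1 RPKM in TAM, 19.8 and 21.4 RPKM in Fibroblast, 35.1 and 26.6 RPKM in LLC and 26.0 and 66.4 RPKM in Total tumor. Of the 14 genes of the constitutive core, 5 were higher in TAM than in Fibroblast (Psmb3, Psma2, Psma1, Psmb7 and Psma4), 0 were called between TAM and LLC, and 3 were lower in Fibroblast than in LLC (Psma7, Psmb7 and Psma3). Over all genes, 17.4% were higher in TAM than in Fibroblast and 25.7% lower in Fibroblast than in LLC. Between TAM and LLC, 15.4% of all genes were higher in TAM and 27.5% lower. The list's medians were 0.99 for TAM minus Fibroblast, 0.22 for TAM minus LLC and -0.91 for Fibroblast minus LLC, beside 0.13, -0.38 and -0.46 over all genes. Without 1 library the number called ran from 0 to 11 for TAM against Fibroblast, from 0 to 3 for TAM against LLC and from 0 to 10 for Fibroblast against LLC, and under the other settings from 2 to 11, from 0 to 2 and from 0 to 9.

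**Figure D4:**
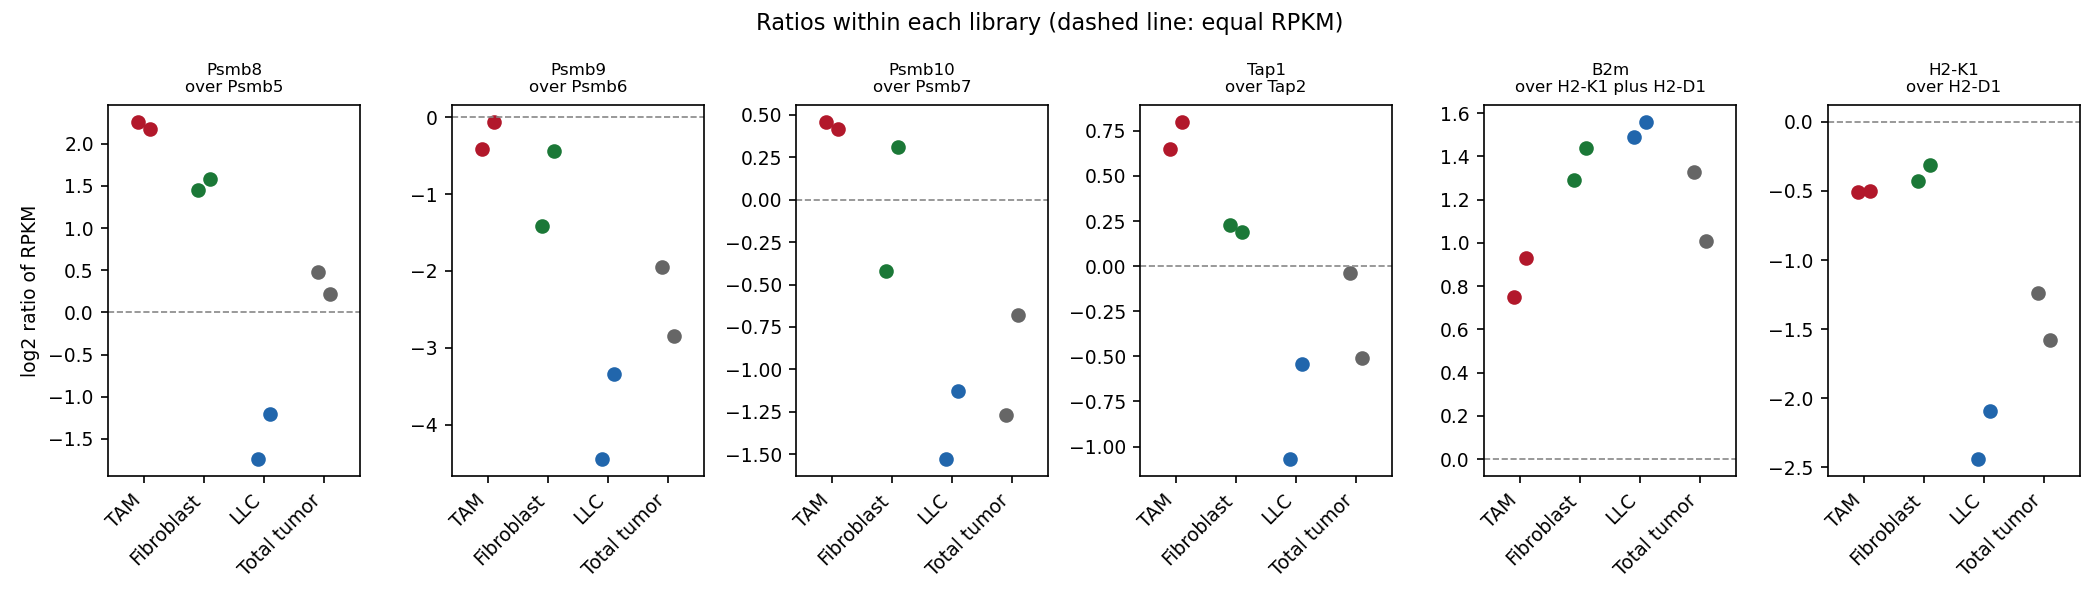
log2 ratios of RPKM within each library for 6 pairs, with a dashed line at equal RPKM and a separate vertical scale in each panel. In the 3 proteasome pairs and in Tap1 over Tap2 the LLC points lie below those of TAM and Fibroblast, and in H2-K1 over H2-D1 LLC lies below all other groups.

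Psmb10, which takes the place of Psmb7, was at 139 and 119 RPKM in TAM, 39.2 and 46.4 RPKM in Fibroblast, 41.8 and 36.9 RPKM in LLC and 43.5 and 100.1 RPKM in Total tumor. It was higher in TAM than in Fibroblast by a log2 difference of 1.57 ± 0.38 (SE, limma adjusted p = 0.0133) and higher in TAM than in LLC by 1.69 ± 0.38 (adjusted p = 0.00894), while its Fibroblast and LLC libraries overlapped. Both calls depended on single libraries: the first ended without any 1 of the 4 TAM and Fibroblast libraries (0.0518 to 0.0982), the other without library 2 of LLC (0.0578) or library 1 of TAM (0.0596), and both without a filter on low values (0.0671 and 0.0522). Of the 6 genes of immunoproteasome partners and activators, 4 were higher in TAM than in Fibroblast, namely Psmb10, the assembly factor Pomp and the activator subunits Psme1 and Psme2. Between TAM and LLC, Psmb10 and Psme2 were higher and Psme3, a subunit of a nuclear activator, was lower, and between Fibroblast and LLC Psme3 alone was called, lower. All-gene shares were 17.4% higher for TAM against Fibroblast, 15.4% higher and 27.5% lower for TAM against LLC and 25.7% lower for Fibroblast against LLC. The medians of the 6 genes were 1.29, 0.76 and -0.54 in these comparisons, beside 0.13, -0.38 and -0.46 over all genes. When 1 library was left out the counts ran from 0 to 4, from 0 to 5 and from 0 to 3, and under the other settings from 0 to 4, from 1 to 4 and from 0 to 2.

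Of the 11 genes of peptide loading and folding in the endoplasmic reticulum, such as the chaperones Calr, Canx and Pdia3, 0 were called by limma between TAM and Fibroblast, against 34.7% of all genes called in either direction. Their median was -0.07, beside 0.13 over all genes. Upper-quartile rescaling and quantile normalization each called 2 of the 11, the length correction 3, and a fit of only these groups 1. Calr, a chaperone of the loading complex, was at 569 and 574 RPKM in TAM, 474 and 488 RPKM in Fibroblast and 420 and 428 RPKM in LLC. Tapbpl, a relative of tapasin that edits peptides, was at 17.2 and 16.3 RPKM in TAM, 10.3 and 17.5 RPKM in Fibroblast and 7.72 and 5.86 RPKM in LLC, and was higher in TAM than in LLC by a log2 difference of 1.20 ± 0.30 (SE, limma adjusted p = 0.0141). Uggt1, a folding sensor for glycoproteins, was lower in TAM than in LLC by -1.18 ± 0.33 (adjusted p = 0.0225). The call of Tapbpl ended without library 2 of LLC (0.0918), library 1 (0.0767) or library 2 (0.0605) of TAM, and that of Uggt1 without library 1 (0.0696) or 2 (0.12) of LLC or library 1 of TAM (0.14). Uggt1 was also not called without a filter on low values (0.0829), with upper-quartile rescaling (0.0676), with quantile normalization (0.0577) or with the length correction (difference -0.46, adjusted p = 0.149).

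Other class I heavy chains, most of them nonclassical, include many that also bind B2m. Of 32 such genes listed, 31 were in the table and 22 passed the filter on low values. Not all of the 22 are separate observations, since H2-L is near-identical to the member H2-D1. H2-T9 and H2-T22 also had nearly the same levels, at 51.6 and 47.9 RPKM and at 49.2 and 46.1 RPKM in TAM. Of these 22, 17 were higher in TAM than in LLC and 1 was lower, with a median log2 difference of 1.90, beside -0.38 over all genes tested, of which 15.4% were higher and 27.5% lower. Between TAM and Fibroblast 9 were higher and 3 lower, with a median of 0.85, beside 0.13 over all genes, of which 17.4% were higher and 17.3% lower. Between Fibroblast and LLC 11 were higher and 0 lower, with a median of 1.03, beside -0.46 over all genes, of which 13.0% were higher and 25.7% lower. Without 1 library the number called was 12 to 19 for TAM against LLC, 6 to 13 for TAM against Fibroblast and 7 to 11 for Fibroblast against LLC.

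Among these 22 genes the Qa-2 genes H2-Q7 and H2-Q9 had the largest log2 differences for TAM minus LLC. H2-Q7 was at 78.9 and 63.3 RPKM in TAM, 21.1 and 17.4 RPKM in Fibroblast, 1.62 and 1.86 RPKM in LLC and 15.8 and 19.9 RPKM in Total tumor. It was higher in TAM than in LLC by a log2 difference of 4.71 ± 0.25 (SE, limma adjusted p = 9.87e-05), higher in TAM than in Fibroblast by 1.83 ± 0.25 (adjusted p = 0.000775) and higher in Fibroblast than in LLC by 2.88 ± 0.25 (adjusted p = 0.000346), and all 3 calls held without each library in turn. H2-Q9 was higher in TAM than in LLC by 4.57 ± 0.23 (adjusted p = 9.87e-05), and H2-Q6 and H2-Q8 by 3.73 ± 0.57 and 3.76 ± 0.58 (adjusted p = 0.0016 and 0.00166). H2-Q7 and H2-Q9, and likewise H2-Q6 and H2-Q8, are near-identical copies whose shared reads may have been split or counted for each, so they are not separate observations.

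Of the other heavy chains described, Hfe was highest in TAM, whereas Procr and Mr1 were lower in TAM than in Fibroblast. Hfe, a class I relative that controls iron uptake, was at 76.6 and 74.9 RPKM in TAM, 11.98 and 12.5 RPKM in Fibroblast, 6.39 and 9.77 RPKM in LLC and 11.2 and 15.2 RPKM in Total tumor. It was higher in TAM than in Fibroblast by a log2 difference of 2.53 ± 0.27 (SE, limma adjusted p = 0.000254). Procr, the endothelial protein C receptor, which has a class I fold but binds no B2m, was at 8.01 and 8.63 RPKM in TAM and 52.0 and 41.7 RPKM in Fibroblast, and was lower in TAM by -2.35 ± 0.38 (adjusted p = 0.00204). Mr1, which presents vitamin B metabolites to T cells, was at 3.54 and 3.65 RPKM in TAM, 9.06 and 12.8 RPKM in Fibroblast and 7.37 and 9.86 RPKM in LLC. Mr1 was lower in TAM than in Fibroblast by -1.36 ± 0.32 (adjusted p = 0.0119) and than in LLC by -1.05 ± 0.32 (adjusted p = 0.0304). Its call against Fibroblast ended without library 2 of Fibroblast (0.114) or either library of TAM (0.0666 and 0.0579), and that against LLC without any 1 of the 6 sorted libraries (0.0553 to 0.166). The call against LLC held in 10 of 21 settings, and also ended without a filter on low values (0.0715), with upper-quartile rescaling (0.0912), with quantile normalization (difference -0.60, adjusted p = 0.149) and with the length correction (-0.72, 0.115). With a pseudocount of 5 the called differences of Mr1 were -0.88 against Fibroblast and -0.66 against LLC.

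The ligands of NKG2D, an activating receptor of natural killer cells, are distant class I relatives without B2m. Of the 9 listed, 8 were in the table and 5 passed the filter on low values, all of the Raet1 group. Raet1e was at 0.369 and 1.59 RPKM in TAM, 0.759 and 0 RPKM in Fibroblast, 14.4 and 14.5 RPKM in LLC and 10.2 and 13.5 RPKM in Total tumor. It was lower in TAM than in LLC by a log2 difference of -3.04 ± 0.41 (SE, limma adjusted p = 0.000879) and lower in Fibroblast than in LLC by -3.54 ± 0.41 (adjusted p = 0.000775), and both calls held without each library in turn. All 5 were lower in Fibroblast than in LLC, against 25.7% of all genes, with a median of -2.29, beside -0.46 over all genes, and without 1 library all 5 were still called. With a pseudocount of 5 the called differences of Raet1e were -1.71 for TAM minus LLC and -1.86 for Fibroblast minus LLC. Raet1a, Raet1b and Raet1d were higher in TAM than in Fibroblast by 1.74 to 1.91, but they are near-identical to each other, and their shared reads may have been counted for each.

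**Figure D5:**
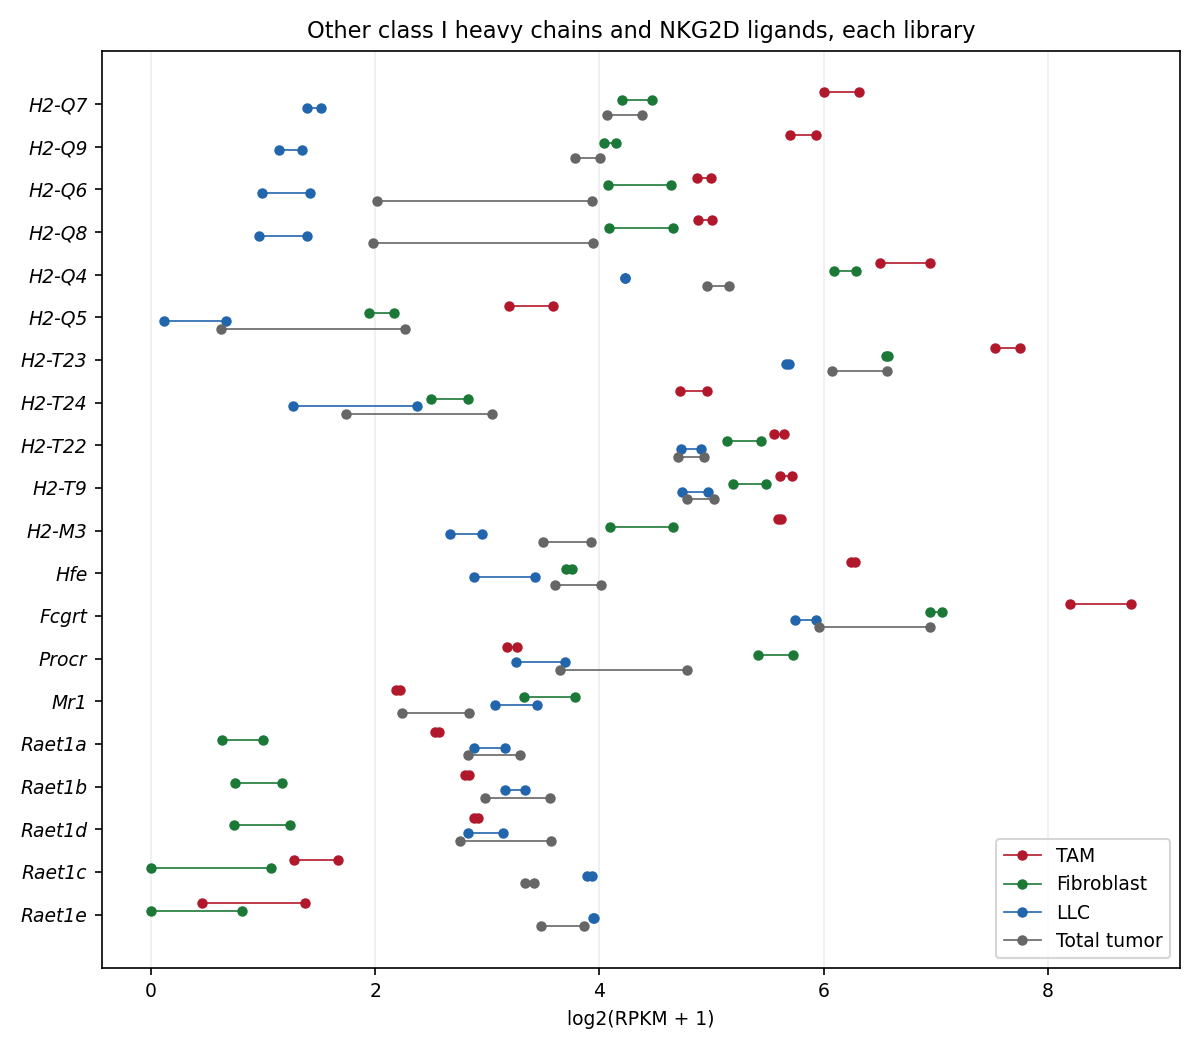
Levels of 15 other class I heavy chains and 5 NKG2D ligands in log2(RPKM + 1), with 1 point per library and a line joining the 2 libraries of a group. TAM lies to the right of LLC for the H2-Q, H2-T and H2-M genes shown, for Hfe and for Fcgrt, and LLC lies to the right of Fibroblast for the Raet1 genes.

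Receptors and signal carriers of interferon were measured to set beside the class I genes. Of the 12 listed, 10 passed the filter, and the interferon genes Ifng and Ifnb1 did not, with Ifng listed at 0 in both TAM libraries and Ifnb1 at 0 in all 8. Between TAM and LLC 5 of the 10 were higher in TAM (Ifnar1, Ifnar2, Ifngr1, Ifngr2 and the kinase gene Tyk2) and 0 lower, against 15.4 and 27.5% of all genes, with a median of 0.95, beside -0.38 over all genes. Ifnar2, a chain of the type I interferon receptor, was at 134 and 101 RPKM in TAM, 56.3 and 62.6 RPKM in Fibroblast and 26.3 and 20.05 RPKM in LLC, and was higher in TAM than in LLC by a log2 difference of 2.29 ± 0.36 (SE, limma adjusted p = 0.00172). Ifngr2, a chain of the interferon gamma receptor, was at 75.9 and 89.8 RPKM in TAM, 49.3 and 56.0 RPKM in Fibroblast and 25.7 and 27.1 RPKM in LLC, a difference of 1.61 ± 0.28 for TAM minus LLC (adjusted p = 0.00295). These 2 calls held without each library in turn.

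Between TAM and Fibroblast, Tyk2, a kinase of the type I interferon receptor, was at 18.9 and 26.7 RPKM in TAM and 7.54 and 7.49 RPKM in Fibroblast. Tyk2 was higher in TAM by a log2 difference of 1.46 ± 0.27 (SE, limma adjusted p = 0.00392), and the call held without each library in turn. Ifnar1, the other chain of that receptor, was at 31.3 and 42.3 RPKM in TAM and 15.6 and 17.0 RPKM in Fibroblast, and was higher in TAM by 1.11 ± 0.25 (adjusted p = 0.00925). Its call ended without library 1 (0.0717) or 2 (0.0534) of Fibroblast or library 2 of TAM (0.0721). Between Fibroblast and LLC 2 of the 10 genes were higher in Fibroblast (Ifnar2 and Ifngr2) and 0 lower, against 13.0 and 25.7% of all genes, with a median of 0.48, beside -0.46 over all genes. Without a filter on low values both calls ended (0.0839 and 0.0713). Without 1 library the number called ran from 0 to 3 for Fibroblast against LLC and from 3 to 7 for TAM against LLC, and under the other settings from 0 to 7 and from 5 to 8.

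Of 15 factors that act at class I promoters, 5 were higher in TAM than in Fibroblast and 0 lower, 5 were higher and 1 lower in TAM than in LLC, and 3 were lower in Fibroblast than in LLC. Over all genes, 17.4% were higher and 17.3% lower in TAM than in Fibroblast, 15.4% higher and 27.5% lower in TAM than in LLC, and 25.7% lower in Fibroblast than in LLC. The list's medians in these comparisons were 0.46, -0.11 and -0.56, beside 0.13, -0.38 and -0.46 over all genes. Irf8, an interferon regulatory factor of the myeloid lineage, was at 83.2 and 64.6 RPKM in TAM, 2.45 and 3.81 RPKM in Fibroblast, 1.5 and 4.54 RPKM in LLC and 18.6 and 25.7 RPKM in Total tumor. Irf8 was higher in TAM than in Fibroblast by a log2 difference of 4.19 ± 0.41 (SE, limma adjusted p = 0.000199) and higher in TAM than in LLC by 4.32 ± 0.41 (adjusted p = 0.000229). Irf2, which binds interferon response elements, was at 56.9 and 65.5 RPKM in TAM, 18.2 and 25.6 RPKM in Fibroblast and 21.1 and 20.1 RPKM in LLC, and was higher in TAM than in Fibroblast by 1.46 ± 0.23 (adjusted p = 0.002) and than in LLC by 1.52 ± 0.23 (adjusted p = 0.00166). The calls of Irf8 and Irf2 held without each library in turn.

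Irf1, an activator of interferon response elements, was at 71.0 and 75.5 RPKM in TAM, 45.02 and 35.3 RPKM in Fibroblast and 43.7 and 38.6 RPKM in LLC. Irf1 was higher in TAM than in Fibroblast by a log2 difference of 0.86 ± 0.23 (SE, limma adjusted p = 0.0228) and than in LLC by 0.82 ± 0.23 (adjusted p = 0.0242), and each call ended without any 1 of the 4 libraries compared (0.0504 to 0.161 and 0.0805 to 0.13). The call against Fibroblast also ended with upper-quartile rescaling (difference 0.57, adjusted p = 0.117), quantile normalization (0.47, 0.227) and the length correction (0.67, 0.0545), and that against LLC with quantile normalization (0.78, 0.055). Ciita, the class II counterpart of Nlrc5, was at 5.82 and 22.6 RPKM in TAM, 0.625 and 0.456 RPKM in Fibroblast and 0.189 and 0.688 RPKM in LLC. Ciita was higher in TAM than in Fibroblast by 3.04 ± 0.73 (adjusted p = 0.0137) and than in LLC by 3.16 ± 0.73 (adjusted p = 0.0106), although its TAM libraries stood far apart. The first call ended without library 1 (0.0771) or 2 (0.0921) of Fibroblast or library 2 of TAM (0.0897), the other without library 1 of LLC (0.0709) or library 2 of TAM (0.0679), and both without a filter on low values (0.0982 and 0.0819). With a pseudocount of 5 the called differences were 1.64 and 1.67. Rfx5, which binds the X box of class I and class II promoters, was not called, with 1.73 and 3.36 RPKM in TAM, 3.81 and 4.48 RPKM in Fibroblast and 6.64 and 6.51 RPKM in LLC. Without 1 library the number called in the list ran from 2 to 5 for TAM against Fibroblast, from 2 to 7 for TAM against LLC and from 0 to 7 for Fibroblast against LLC, and under the other settings from 3 to 5, from 4 to 7 and from 1 to 7.

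Over the 8 libraries the members varied together to different degrees, as a description of values that share libraries and depth. The Pearson correlation of a member with the mean of the other 9 was 0.97 for B2m and Tap1, 0.94 for Psmb9, 0.92 for H2-K1 and Tap2, 0.91 for H2-D1 and 0.90 for Psmb8. It was 0.68 for Nlrc5, 0.57 for Tapbp and -0.15 for Erap1. Among the 8352 other genes with a mean of at least 10 RPKM in their highest group, 165 had a correlation of at least 0.95 with the mean of the members over the 8 libraries. The 8 most alike were Lipe (0.993), Slfn8 (0.991), Abcc3 (0.989), Tnfsf13 (0.988), Man2b1 (0.987), Idua (0.987), Tmem106a (0.986) and 9030617O03Rik (0.984). Slfn8, a Schlafen family gene, averaged 27.1 ± 0.61 RPKM in TAM, 9.82 ± 2.16 RPKM in Fibroblast, 6.67 ± 1.05 RPKM in LLC and 12.1 ± 0.706 RPKM in Total tumor (SD, n = 2 each).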

How the data were processed

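The deposited table holds RPKM values that the authors computed per RefSeq transcript, 1 column per library. Per the submitters' processing notes, STAR, HOMER and the mouse build mm9 were used. The reads behind the RPKM total, the strand setting and the treatment of reads matching several places are not given by these notes or the labels, and such reads could move the levels of near-identical heavy chains.

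Per the labels, RNA was primed with oligo-dT and read at 50 bp. Transcripts without a gene name (3 of 31645, at most 0.0032% of a library's summed RPKM) were dropped. Genes with at least 1 RPKM in at least 2 libraries were tested on log2(RPKM + 1), a scale that understates the change of low genes. limma 3.58.1 in R 4.3.3 was fitted once over the 8 libraries with a mean-variance trend (4 residual and 3.62 prior degrees of freedom), for all 6 pairs of groups. Genes with a Benjamini-Hochberg adjusted p under 0.05 over the 13311 genes were called. No counts were given: depth was estimated from the smallest steps of low values, of which only 57.5 to 62.2% fell within 0.05 of whole reads, so no count test was run and precision rests on 2 libraries per group.

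The members and gene lists were chosen with earlier results of these data known. Named beside the members were up to 4 called genes in each direction per list and comparison of sorted populations, from which those described were taken, and Psmb5, Psmb6, Psmb7, Psmb10, Psme1, Psme2, Irf1, Rfx5 and Ciita in any case; 1 further gene of this rule is not reported here. Calr, Ifng, Ifnb1, H2-L, LOC547349 and the genes named only to spell out a count were chosen after their values were seen. Genes described as most alike are the 8 with the largest correlation. Alternatives were other pseudocounts, filters, scalings and fits, a length correction, a replicate term and leaving out each library.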

Additional observations from a re-analysis of the deposited data

How the results depend on the processing

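Over 21 settings, the calls of H2-K1, Tap1, Psmb8 and Psmb9 for TAM against LLC, of Tap1 and Psmb9 for TAM against Fibroblast and against Total tumor, and of Psmb8 and Psmb9 for Fibroblast against LLC held in every one. Without a filter on low values 3 members were called for TAM against Fibroblast and 0 for LLC against Total tumor. With only the groups compared, 2 were called for TAM against Total tumor and 0 for LLC against Total tumor. With the length correction 8 were called for TAM against Total tumor, 4 for Fibroblast against Total tumor and 4 for LLC against Total tumor. For Fibroblast against Total tumor 2 were called with upper-quartile rescaling and 1 with quantile normalization. Without 1 library the members called numbered 2 to 8 for TAM against Fibroblast, 4 to 8 for TAM against LLC, 2 to 4 for Fibroblast against LLC, 3 to 8 for TAM against Total tumor, 0 to 2 for Fibroblast against Total tumor and 0 to 4 for LLC against Total tumor. The cause of these changes was not tested.

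No called member changed sign. Uncalled differences that did were, under upper-quartile rescaling, Fibroblast minus LLC of Tapbp (0.43), Nlrc5 (0.08) and Erap1 (0.15), Fibroblast minus Total tumor of H2-D1 (0.06), B2m (0.62), Tap2 (0.27), Tapbp (0.42) and Psmb9 (0.48), and Erap1 for TAM minus Fibroblast (-0.09) and TAM minus LLC (0.06). Under quantile normalization they were Fibroblast minus LLC of H2-D1 (-0.27), B2m (-0.34) and Erap1 (0.15), TAM minus Total tumor of B2m (-0.10), Fibroblast minus Total tumor of Tap2 (0.23), Tapbp (0.13) and Psmb9 (0.45), LLC minus Total tumor of Tapbp (0.19), and Erap1 for TAM minus Fibroblast (-0.04) and TAM minus LLC (0.11). Under the length correction they were Fibroblast minus LLC of Tapbp (0.41), Nlrc5 (0.16) and Erap1 (0.17), Fibroblast minus Total tumor of H2-D1 (0.07), B2m (0.95), Tap2 (0.11), Tapbp (0.35) and Psmb9 (0.69), and TAM minus LLC of Erap1 (0.47).

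Without 1 library the sign changed within these ranges. Fibroblast minus LLC ran from -0.06 to 0.32 for H2-D1, -0.00 to 0.35 for Tap2 and -0.69 to 0.00 for Nlrc5. Fibroblast minus Total tumor ran from -0.25 to 0.25 for B2m, -0.01 to 0.28 for Tap1, -0.62 to 0.23 for Tapbp, -0.38 to 0.69 for Psmb8, -0.41 to 0.17 for Psmb9, -1.29 to 0.15 for Nlrc5 and -0.43 to 0.96 for Erap1. LLC minus Total tumor ran from -0.54 to 0.31 for Tapbp, -0.95 to 0.49 for Nlrc5 and -0.10 to 1.29 for Erap1. TAM minus Total tumor ran from -0.17 to 0.69 for Tapbp and -0.24 to 1.15 for Erap1. Erap1 ran from -0.20 to 0.59 for TAM minus Fibroblast and from -0.53 to 0.26 for TAM minus LLC.

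Scaling shifted all genes. Of the calls between Fibroblast and LLC, 33.6% were higher in Fibroblast without rescaling, 60% with upper-quartile rescaling and 47.5% with quantile normalization, and the median of all genes was -0.46, -0.05 and -0.19. For TAM against LLC these shares were 35.9, 44.5 and 46.3% and the medians -0.38, -0.21 and -0.15. All genes called for LLC against Total tumor numbered 313, and 12 without a filter, 0 with only the groups compared, 180 with a pseudocount of 5 and 202 with upper-quartile rescaling. Those for TAM against Total tumor numbered 4690, and 3098 without a filter and 1905 with only the groups compared, and those for Fibroblast against Total tumor 5601, and 3220 with only the groups compared.

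Replicate numbers were not taken to pair the libraries, since the labels name no shared animal or day, each group has only 2 numbers, and number goes with depth. Deviations of same-numbered libraries correlated at 0.162, 0.274 and 0.206 between sorted groups and at -0.361, -0.179 and -0.232 between these and Total tumor. With a replicate block, 6 members were called for TAM against Fibroblast, without H2-D1 (adjusted p = 0.0612), and 6 for TAM against LLC, without Nlrc5 (0.072). With 2 libraries per group, a difference that did not pass is not shown to be absent.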
